A study of Mus musculus with 4 samples.

Results

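The UDP-glucuronosyltransferase (UGT) genes of mouse liver were described on 4 expression arrays of whole liver RNA. The members were 10 named genes, Ugt1a1, Ugt1a6a, Ugt2a3, Ugt2b1, Ugt2b5, Ugt2b34, Ugt2b35, Ugt2b36, Ugt2b38 and Ugt3a1, out of 23462 genes with a matched probe, and a probe was a member's where its transcript accession matched that gene in RefSeq. Of these, 9 had a probe, 1 each, and all 9 probes were well above background on all 4 arrays. Ugt1a1, which conjugates bilirubin, matched no probe by this rule and its expression was not analysed here. The probes of 5 members, Ugt1a6a, Ugt2a3, Ugt2b5, Ugt2b34 and Ugt2b36, carried no outlier flag on any array. The other 4, Ugt2b1, Ugt2b35, Ugt2b38 and Ugt3a1, were flagged by the image analysis as uneven spots on at least 1 array. They are given with their flags, outside the main counts.

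The 4 groups were aging type 2 diabetic mice given astragalus polysaccharide (APS, a plant polysaccharide preparation) together with metformin, mice with the same aging type 2 diabetes that received only metformin, a glucose-lowering drug of the biguanide class, aging diabetic mice with neither agent, and natural aging mice with no drug treatment. All were male and fasted, and the sample titles carry 60 days, whose meaning is not stated. Strain, age, doses and the way diabetes was produced are not given in the sources used here, nor whether each RNA came from 1 mouse or a pool. Each group had 1 array, so there was no replicate and no test, and a difference below is one between 2 arrays.

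UGT enzymes sit in the membrane of the endoplasmic reticulum and transfer glucuronic acid from UDP-glucuronic acid to drugs, bilirubin, steroids and other fat-soluble compounds, which can then leave the cell in bile or urine. The Ugt1a enzymes come from a single locus in which alternative first exons, each with its own promoter, are joined to a shared set of later exons. The Ugt2 enzymes come from a cluster of separate genes that arose by duplication and are close in sequence, and hepatocytes are a main site of both. In the RefSeq table, 7 of 9 Ugt1a genes had the same annotated end. A probe in the shared exons would therefore read several Ugt1a transcripts, and probes of near-identical Ugt2b genes may cross-hybridize. Probe sequences were not used here, so which transcripts a probe reads was not determined.

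The promoters of 5 members are printed: that of Ugt1a6a, whose probe was higher on the diabetic arrays, and those of 4 genes of the Ugt2 cluster. These 4 are the members with the nuclear receptor core described below, so they do not stand for the whole cluster. Those of Ugt2a3, Ugt2b1 and Ugt2b34, which lack it, are not printed. Each printed promoter is the RefSeq window (GRCm38.p6) of 250 bases before to 50 after the annotated start, read in the direction of the gene. The windows are chr1:88134559-88134858 on the plus strand for Ugt1a6a, chr5:87000610-87000909 on the plus strand for Ugt2b35, chr5:87092506-87092805 on the minus strand for Ugt2b36, chr5:87140291-87140590 on the minus strand for Ugt2b5 and chr5:87424154-87424453 on the minus strand for Ugt2b38. Capitals mark matches, on either strand, to any of the motifs searched.
Ugt1a6a: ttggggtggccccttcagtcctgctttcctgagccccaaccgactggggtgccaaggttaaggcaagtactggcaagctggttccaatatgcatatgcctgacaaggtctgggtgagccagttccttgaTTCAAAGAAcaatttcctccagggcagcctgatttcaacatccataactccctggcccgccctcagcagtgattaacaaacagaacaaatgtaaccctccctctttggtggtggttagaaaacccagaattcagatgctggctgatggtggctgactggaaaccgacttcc
Ugt2b35: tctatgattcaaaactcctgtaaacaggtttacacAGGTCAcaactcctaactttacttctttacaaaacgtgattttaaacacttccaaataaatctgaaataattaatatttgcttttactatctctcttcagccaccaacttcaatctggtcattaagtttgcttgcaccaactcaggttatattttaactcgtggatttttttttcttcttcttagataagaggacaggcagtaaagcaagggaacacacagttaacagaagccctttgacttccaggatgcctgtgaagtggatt
Ugt2b36: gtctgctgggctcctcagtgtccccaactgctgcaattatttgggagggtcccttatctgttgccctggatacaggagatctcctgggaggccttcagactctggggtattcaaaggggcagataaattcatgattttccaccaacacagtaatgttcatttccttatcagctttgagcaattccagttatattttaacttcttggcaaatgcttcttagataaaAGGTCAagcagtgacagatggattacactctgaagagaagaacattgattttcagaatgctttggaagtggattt
Ugt2b5: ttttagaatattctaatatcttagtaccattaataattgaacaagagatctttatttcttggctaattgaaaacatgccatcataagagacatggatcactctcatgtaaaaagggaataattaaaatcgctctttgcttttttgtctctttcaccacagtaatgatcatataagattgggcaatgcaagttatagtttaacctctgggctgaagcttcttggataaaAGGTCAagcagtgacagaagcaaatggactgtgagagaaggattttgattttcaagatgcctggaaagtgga
Ugt2b38: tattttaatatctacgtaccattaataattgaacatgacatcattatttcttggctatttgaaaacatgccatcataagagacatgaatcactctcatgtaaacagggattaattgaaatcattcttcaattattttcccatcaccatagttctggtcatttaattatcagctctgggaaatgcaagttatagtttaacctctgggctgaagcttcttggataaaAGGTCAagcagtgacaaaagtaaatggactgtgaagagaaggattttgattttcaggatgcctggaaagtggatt

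The motifs searched were the xenobiotic response element core GCGTG, the antioxidant response element core TGACNNNGC, a STAT site TTCNNNGAA, the nuclear receptor core AGGTCA, a direct repeat of that core with 1 base between the copies, which overlaps it, and the TATA box TATAAA. Among the promoters of all 10 members, the nuclear receptor core was found in 4, against 16.3% of 32817 promoters of the same length. Those were Ugt2b35, Ugt2b36, Ugt2b5 and Ugt2b38, and in the last 3 it stands between 17 and 25 bases before the start. The direct repeat was in none of the 10, against 0.0396% of all promoters, and the TATA box letters were in 1, Ugt3a1, against 13.6%. The STAT letters were found in 1 member, Ugt1a6a, against 8.29% of all promoters. The letters of the xenobiotic and antioxidant response elements were in none of the 10 windows, against 32.4% and 12.4% of all promoters. The Ugt2b5 and Ugt2b38 windows had 90% identity over 290 aligned bases, while the other pairs of members lay between 54.2% and 71.1%.

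Levels are log2 of the processed signal above each array's 75th percentile, a scale on which a difference of 1 is 2-fold. That percentile was a signal of 3406 on the APS plus metformin, 3589 on the metformin, 3068 on the aging diabetic and 2700 on the natural aging array. No spot was saturated. Between 33668 and 37402 of 59305 spots were well above background. The error of a member's difference, from the image analysis, was 0.16 to 0.17 log2 and covers measurement only, not the spread between animals. Levels are said below to lie within error when they differ by at most 2 such errors. Genes past 2-fold in either direction were counted, and this is what higher or lower means in a count. Signals of 6 of the 9 member probes were in the brightest 10% of probes on every array, a property of the probe as well as of the transcript, so levels are not compared between genes.

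Ugt1a6a, which in mouse conjugates small planar phenols, was the member past 2-fold on all 3 diabetic arrays against natural aging. Its processed signal was 3597 in APS plus metformin, 3123 in metformin and 3486 in aging diabetic liver, against 882 in natural aging liver. As levels these were 0.08, -0.20 and 0.18, against -1.61. All 3 diabetic arrays were thus above natural aging, and among them neighbouring levels lay within error, while metformin was below aging diabetic by slightly more than 2 errors. Ugt1a6a was 3.23-fold higher in APS plus metformin than in natural aging (1.69 ± 0.17 log2), 2.66-fold higher in metformin (1.41 ± 0.17 log2) and 3.48-fold higher in aging diabetic (1.80 ± 0.17 log2). These comparisons share the natural aging array. Over the 9 ways of processing that were tried, the difference from natural aging ran between 1.51 and 1.69 for APS plus metformin, 1.20 and 1.41 for metformin and 1.74 and 1.80 for aging diabetic. Several of these ways could not change the value, as Ugt1a6a has 1 probe, unflagged and well above background on every array.

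**Figure D1:**
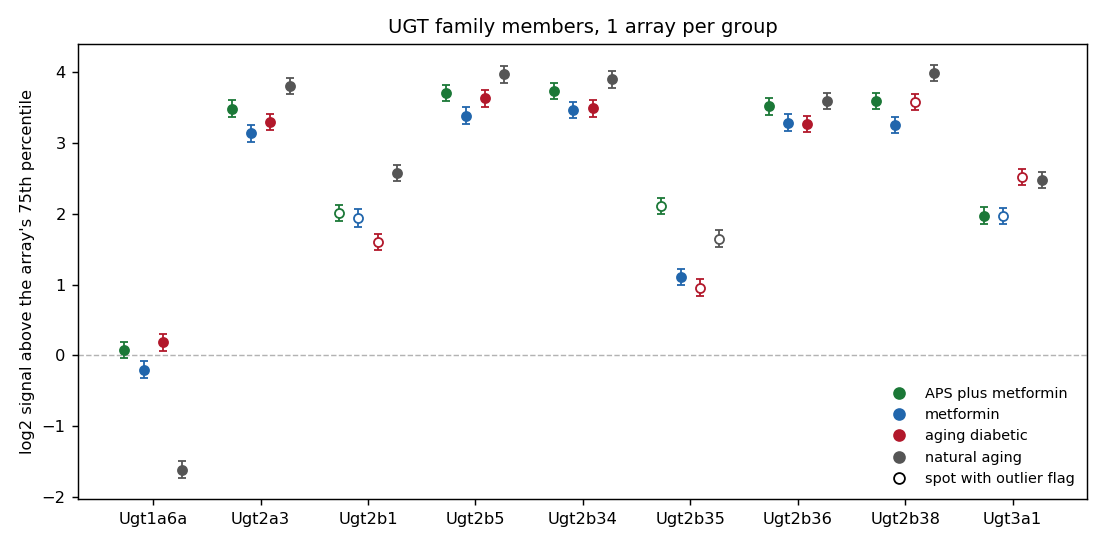
Level of each UGT member with a probe (horizontal axis) as log2 signal above the array's 75th percentile (vertical axis), 1 point per array, with bars for the measurement error of the image analysis. Open points are spots with an outlier flag. Ugt1a6a stands between -0.20 and 0.18 on the diabetic arrays against -1.61 on natural aging, while Ugt2a3, Ugt2b5, Ugt2b34 and Ugt2b36 span at most 0.67.

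The Ugt2 members without a flag were bright on all arrays and varied little. Ugt2b5 had processed signals of 44508 in APS plus metformin, 37590 in metformin, 38010 in aging diabetic and 42323 in natural aging liver, levels of 3.71, 3.39, 3.63 and 3.97. Ugt2b34 had levels of 3.74, 3.47, 3.49 and 3.90 in the same order of arrays. Ugt2b36 had levels of 3.52, 3.29, 3.27 and 3.60. For Ugt2a3, whose human counterpart glucuronidates bile acids, they were 3.49, 3.14, 3.29 and 3.80. Natural aging was the highest array for each of these 4 genes and APS plus metformin came next, with neighbouring levels within error in every case. The lowest was metformin for Ugt2a3, Ugt2b5 and Ugt2b34, and aging diabetic for Ugt2b36.

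The common order of the Ugt2 genes depended on how arrays were scaled. Against natural aging, Ugt2b5 differed by -0.26 in APS plus metformin, -0.58 in metformin and -0.34 in aging diabetic liver. With the arrays given the same distribution (quantile normalization), the median over the 5 members without a flag was 0.051 for metformin and -0.033 for aging diabetic against natural aging, in place of -0.43 and -0.34. Hepatocyte markers were likewise highest on natural aging. Over 4 of 6 markers with a usable probe (Alb, Ttr, Apob and Serpinc1), the summed level on the linear scale was 52.7 in APS plus metformin, 42.5 in metformin and 52.1 in aging diabetic, against 63.3 in natural aging. All 4 markers were well above background on each array. In aging diabetic they differed from natural aging by -0.12 (Alb), -0.31 (Serpinc1), -0.39 (Apob) and -0.40 (Ttr), with Alb and Serpinc1 within error. Apob alone was lower in APS plus metformin (1.26) than in aging diabetic (1.70), unlike the Ugt2 genes. In metformin against aging diabetic the markers differed by -0.33 (Alb), -0.18 (Serpinc1), -0.56 (Apob) and -0.32 (Ttr). The same difference was -0.16 for Ugt2a3, -0.24 for Ugt2b5, -0.03 for Ugt2b34 and 0.02 for Ugt2b36. The part of hepatocyte content in the Ugt2 values was not tested. Fewer hepatocytes, less RNA per hepatocyte and the scaling of the arrays cannot be told apart here.

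**Figure D2:**
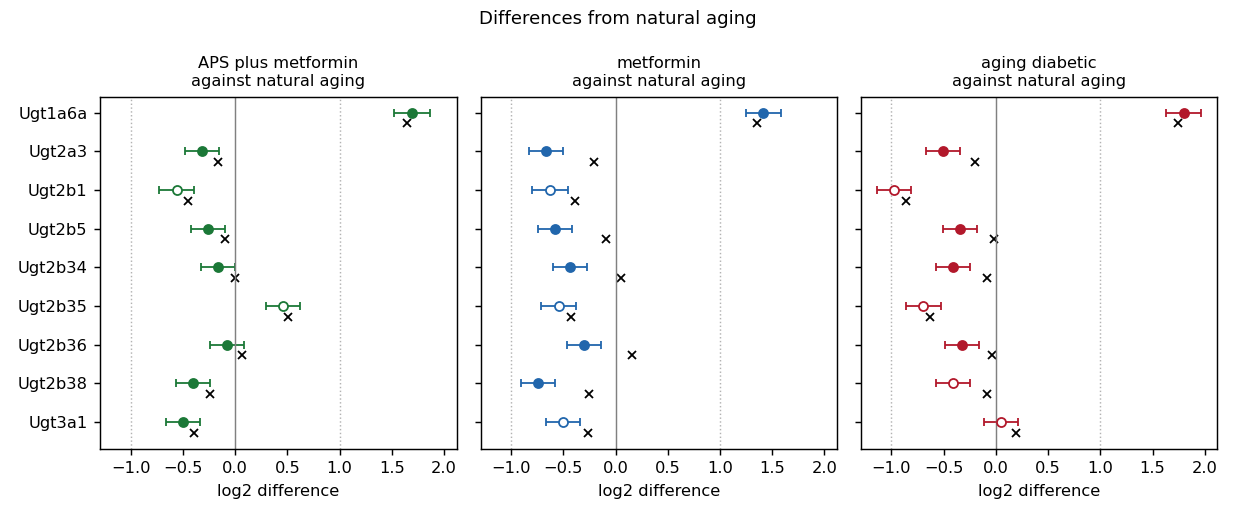
Log2 difference from natural aging (horizontal axis) of each member (rows) for APS plus metformin, metformin and aging diabetic, with bars for the combined measurement error. Open points rest on a flagged spot, crosses are the same differences after quantile normalization, and dotted lines mark 2-fold; only Ugt1a6a lies past the upper line, and the Ugt2a3, Ugt2b5, Ugt2b34 and Ugt2b36 crosses sit nearer to 0 than their points for metformin and aging diabetic.

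Among the 4 flagged members, Ugt2b35 was the one past 2-fold. Its signal was 14745 in APS plus metformin, flagged, 7725 in metformin, 5964 in aging diabetic, flagged, and 8482 in natural aging, flagged. The levels were 2.11, 1.11, 0.96 and 1.65. APS plus metformin stood above the other arrays, beyond error in each case, and metformin and aging diabetic lay within error. Ugt2b35 was 2.23-fold higher in APS plus metformin than in aging diabetic (1.16 ± 0.16 log2) and 2.01-fold higher than in metformin (1.01 ± 0.16 log2). After quantile normalization these differences were 1.13 and 0.93, so the second falls short of 2-fold. With 3 of 4 spots flagged, no Ugt2b35 difference rests on unflagged spots alone.

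Ugt2b1, whose rat counterpart conjugates morphine, had its lowest signal in aging diabetic liver. The signals were 13741 in APS plus metformin, 13813 in metformin and 9305 in aging diabetic, all flagged, and 16068 in natural aging. Its levels of 2.01, 1.94 and 1.60, against 2.57, put natural aging above the diabetic arrays beyond error. The difference of aging diabetic from natural aging was -0.97 ± 0.16 log2, just short of 2-fold, and -0.86 after quantile normalization. APS plus metformin and metformin were above aging diabetic by 0.41 and 0.34 on the log2 scale, and the metformin difference lay within 2 errors. After quantile normalization these were 0.41 and 0.48, both beyond 2 errors.

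Ugt2b38, flagged on the aging diabetic array only, had levels of 3.59, 3.25 and 3.58 in APS plus metformin, metformin and aging diabetic, against 3.99 in natural aging. Metformin was lower than natural aging by 1.67-fold (-0.74 ± 0.16 log2), with no flag on either array. Its promoter is the near copy of that of Ugt2b5, for which the same difference was -0.58. For Ugt2a3, whose promoter has 62.2% identity with that of Ugt2b38, it was -0.67. A link between promoter and level was not tested. After quantile normalization the difference was -0.26 for Ugt2b38, within 2 errors of 0, and -0.09 for Ugt2b5. Ugt3a1, of a family whose human enzyme uses UDP-N-acetylglucosamine as sugar donor, had levels of 1.98, 1.97 and 2.53, against 2.47. APS plus metformin and metformin were thus below aging diabetic and natural aging, and the 2 arrays of each pair lay within error of one another. After quantile normalization they differed from natural aging by -0.39 and -0.26, the metformin difference within 2 errors of 0. Ugt3a1 differed by -0.55 ± 0.16 log2 from aging diabetic in APS plus metformin and by -0.55 ± 0.16 log2 in metformin. The aging diabetic and metformin spots of Ugt3a1 were flagged.

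In aging diabetic against natural aging liver, the genes past 2-fold were 8.2% of 14453 on the higher side and 6.09% on the lower side. Of the 5 members without a flag, 1 was higher (Ugt1a6a) and none lower, and their median difference was -0.34 log2, against -0.04 over all genes. The remaining 4 ranged from -0.51 for Ugt2a3 to -0.33 for Ugt2b36, and all except Ugt2b36 and Ugt1a6a differed from 0 by over 2 errors in the negative direction. With flagged spots kept, the count was 1 of 9 higher and none lower, against 1286 higher and 965 lower of 16005 genes.

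In metformin against aging diabetic liver, which addresses metformin given alone, 11.9% of 15562 genes were higher and 3.53% lower. Higher genes made up 77.1% of those past 2-fold, and 63.9% with each array centred on its median. In this comparison none of the 5 members was past 2-fold either way. Their median was -0.16 log2, against 0.00 over all genes. Ugt1a6a had the largest difference in size of the 5, -0.38 ± 0.16 log2, and Ugt2b36 was at 0.02. With flagged spots kept, none of 9 was past 2-fold, against 1965 higher and 580 lower of 17110 genes.

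In APS plus metformin against aging diabetic liver, 4.38% of 14734 genes were higher and 6.9% lower, and again none of the 5 members was past 2-fold. The median was 0.19 log2, against 0.02 over all genes, with Ugt1a6a at -0.11, Ugt2b5 at 0.08 and Ugt2b34 and Ugt2b36 at 0.25 each, all within 2 errors of 0. With flagged spots kept, 1 of 9 was higher, Ugt2b35, against 717 of 16269 genes. For APS plus metformin against metformin, the pair that differs by APS, 2.37% of 15599 genes were higher and 12.4% lower, so that 16.0% of those past 2-fold were higher, or 28.0% with median centring. No member of the 5 was past 2-fold, and their differences ran from 0.23 for Ugt2b36 to 0.35 for Ugt2a3, with a median of 0.28 against -0.03 over all genes. After quantile normalization that median was -0.0059.

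Set against natural aging, metformin had 13% of 15548 genes higher and 4.71% lower (73.4% of those past 2-fold higher, or 55.8% with median centring), and 1 of 5 members higher (Ugt1a6a) with a median of -0.43 log2 against 0.00 over all genes. APS plus metformin had 6.14% of 14634 genes higher and 6.68% lower, and 1 of 5 members higher (Ugt1a6a) with a median of -0.16 against -0.03. Against these shares over all genes, a single member past 2-fold among 5 is too few to set the list apart from the array as a whole.

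Further genes of the same loci were read beside the members. Of 12 listed, 6 had a probe. Ugt1a10, from the farthest upstream first exon of the Ugt1 locus, had signals of 8644 in APS plus metformin, 8244 in metformin and 5096 in aging diabetic, against 2015 in natural aging, with no flag. Its levels were 1.34, 1.20 and 0.73, against -0.42. As for Ugt1a6a, natural aging was the lowest array and lay outside the range of the diabetic arrays. Ugt1a10 was 3.40-fold higher in APS plus metformin (1.77 ± 0.16 log2), 3.08-fold higher in metformin and 2.22-fold higher in aging diabetic than in natural aging. Unlike Ugt1a6a, it was also above aging diabetic in APS plus metformin by 0.61 and in metformin by 0.47, both beyond 2 errors, with APS plus metformin and metformin within error.

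Ugt1a6b, the near copy of Ugt1a6a, had 3 probes and none followed it. The probe that stood for the gene had levels of 3.90, 3.65 and 3.74 in APS plus metformin, metformin and aging diabetic, against 3.94 in natural aging. The others spanned 0.33 and 0.41 over the 4 arrays. Against natural aging, the 3 probes differed by -0.30 to -0.14 in aging diabetic liver, whereas the probe of Ugt1a6a differed by 1.80. After quantile normalization 2 of the 3 changed direction, to 0.17 and 0.13, and the flagged one stayed at -0.30. Whether these probes lie in shared exons was not determined.

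Ugt3a2, next to Ugt3a1 on chromosome 15, had 2 probes that disagreed. One had levels of 2.42 in APS plus metformin, 0.62 in metformin and 2.84 in aging diabetic, against 2.62 in natural aging, so that metformin was 4.65-fold lower than aging diabetic and APS plus metformin 3.49-fold higher than metformin. By the other, the same differences were -0.18 and 0.13 on the log2 scale. Neither probe had a flag, and the call thus rests on 1 probe on 1 array. Ugt2b37, flagged on the metformin and natural aging arrays, had levels of 3.08, 2.69 and 2.75, against 3.34, the order seen in Ugt2a3, Ugt2b5 and Ugt2b34. Ugt2a1, known from olfactory tissue, differed from natural aging by 0.07 in APS plus metformin, -0.49 in metformin and -0.40 in aging diabetic. Ugt8a, a ceramide galactosyltransferase, was dim. The probe that stood for it, not well above background on natural aging, differed by -0.83 in metformin against aging diabetic, or -1.08 after quantile normalization. Its other probe was well above background on the metformin array only, where it was higher than on the other arrays, so the probes disagree.

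**Figure D3:**
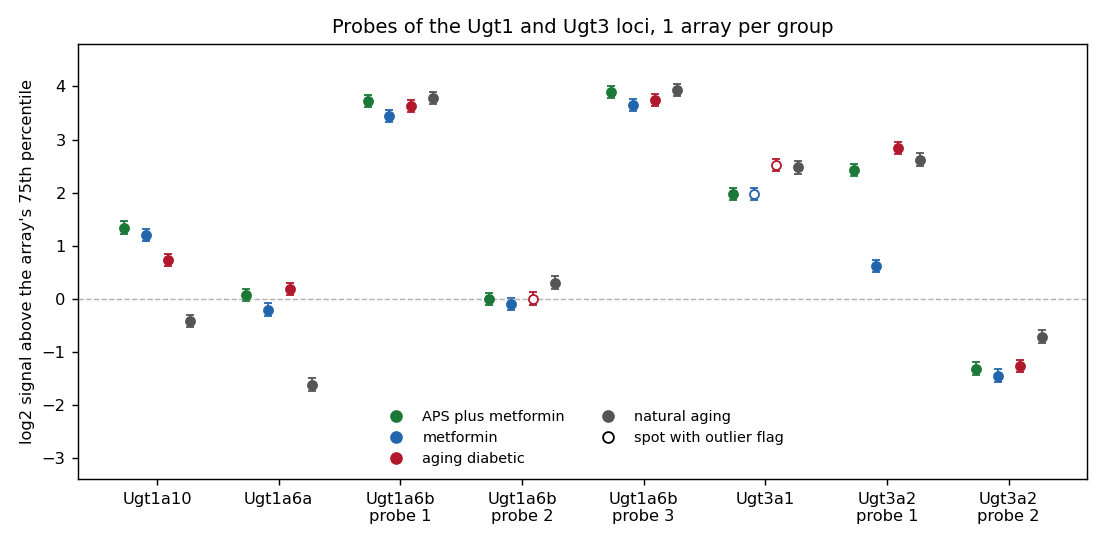
Level of every probe of Ugt1a10, Ugt1a6a, Ugt1a6b, Ugt3a1 and Ugt3a2 (horizontal axis) as log2 signal above the array's 75th percentile (vertical axis), 1 point per array with measurement error, open where flagged. Ugt1a10 and Ugt1a6a are lowest on natural aging (-0.42 and -1.61), the 3 Ugt1a6b probes span 0.41 at most, and of the Ugt3a2 probes only the first has a low metformin point (0.62).

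The supply of the sugar donor was measured by 6 genes, 5 with a usable probe, and none was past 2-fold in any of the 6 comparisons. Ugdh, which makes UDP-glucuronic acid, had signals of 36680 in APS plus metformin, 32730 in metformin and 19839 in aging diabetic, against 18137 in natural aging. It was above aging diabetic by 0.74 in APS plus metformin and by 0.50 in metformin on the log2 scale, and its other probe, flagged on 1 array, differed by 0.44 and 0.24. Slc35d1, which carries the donor into the endoplasmic reticulum, differed from natural aging by -0.34 in APS plus metformin, -0.63 in metformin and -0.44 in aging diabetic. Among 6 of 7 genes of glucuronate use and deconjugation, Miox, which opens inositol to glucuronate, was 3.14-fold higher in APS plus metformin and 5.77-fold higher in metformin than in natural aging. Its natural aging level of -4.29 was close to that array's detection floor of -4.52. The errors of these differences were 0.31 and 0.30 log2. Uxs1, which turns UDP-glucuronic acid into UDP-xylose, was 2.04-fold lower in APS plus metformin and 2.41-fold lower in aging diabetic than in natural aging. By its dimmer probe, also without a flag, these differences were -0.85 and -1.06 log2, so the first falls short of 2-fold. Gusb, the deconjugating beta-glucuronidase, differed by at most 0.39 in size.

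Transporters of glucuronides and bilirubin included the widest difference among the pathway lists, that of Slco1a1. Of 6 with a usable probe, 2 were higher and 1 lower in aging diabetic than in natural aging, against 8.2% and 6.09% of all genes. Abcc4, an efflux pump of the sinusoidal membrane, had levels of 0.44 in APS plus metformin, 0.67 in metformin and 0.16 in aging diabetic, against -2.33, and was 5.61-fold higher in aging diabetic. Slco1a4, an uptake carrier, had signals of 19712, 10174 and 9421 in the same order, against 2562. Slco1a1, an uptake carrier of male liver, had levels of -2.84, -1.71 and -2.32, against 2.55. Abcc3, Abcg2 and Slco1b2 were short of 2-fold throughout. All 4 genes of bilirubin formation (Hmox1, Hmox2, Blvra and Blvrb) were short of 2-fold in all 6 comparisons.

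Of 11 regulators of UGT genes, 10 had a usable probe. Of these, 1 was at least 2-fold higher in aging diabetic than in natural aging, against 8.2% of all genes. The same regulator was the 1 past 2-fold in APS plus metformin and in metformin against natural aging. There, 6.14% and 13% of all genes were higher. This gene, Nfe2l2, the antioxidant regulator NRF2, was 5.24-fold higher by the probe without a flag (2.39 log2), but its brighter probe, flagged on 3 arrays, differed by 0.13, so the probes disagree. Nr1i2, Nr1i3, Rxra, Keap1, Ppara, Nr1h4 and Hnf4a, receptors and factors known to act on UGT promoters or on Nfe2l2, were short of 2-fold by the probe that stood for each; a dimmer Nr1i3 probe was past it, at 1.38 for APS plus metformin against aging diabetic.

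Targets of the same sensors went different ways. Nqo1, a target of the aryl hydrocarbon receptor and of NRF2, had levels of 0.64 in APS plus metformin, 0.79 in metformin and -0.21 in aging diabetic, against -1.99, and was 3.44-fold higher in aging diabetic. Cyp2b10, a target of the receptor CAR, was 2.29-fold higher in aging diabetic than in natural aging, and 3.31 log2 higher by its other probe, flagged on 2 arrays. Cyp2c55, of the same list, was 2.44-fold lower in aging diabetic than in natural aging. It was 5.99-fold higher in metformin than in aging diabetic, and 5.07-fold lower in APS plus metformin than in metformin. By its dimmer probe these 3 differences were -0.11, 1.55 and -0.97 log2. Tiparp, a target of the aryl hydrocarbon receptor, was 11.6-fold lower in aging diabetic. Cyp1b1 was 3.61-fold higher in APS plus metformin and 4.87-fold higher in metformin than in aging diabetic. Gclm, Srxn1 and Txnrd1, targets of NRF2, were short of 2-fold. Over the 10 targets with a usable probe, 2 were higher and 2 lower in aging diabetic than in natural aging, with a median of -0.15 log2. The shares over all genes were 8.2% higher and 6.09% lower.

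**Figure D4:**
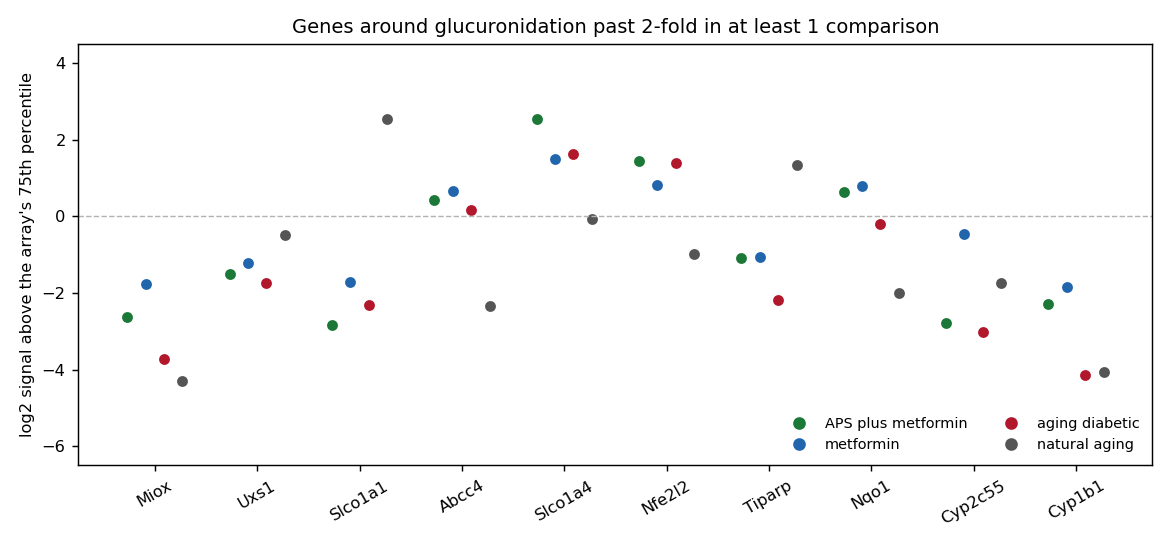
Level of the 10 genes around glucuronidation that were past 2-fold in at least 1 comparison, up to 4 per list (horizontal axis), as log2 signal above the array's 75th percentile (vertical axis), 1 point per array. Abcc4, Nfe2l2 and Nqo1 are lowest on natural aging (-2.33, -0.99 and -1.99), and Slco1a1 is highest there (2.55).

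Over the 4 arrays, the genes whose centred log2 pattern was most like that of Ugt1a6a were Gata6os, Lhpp and Cyp4a31, with root mean square differences of 0.083, 0.089 and 0.098 among 12689 genes well above background on every array. In all, 66 genes lay within 0.25. For Ugt2a3, the member without a flag with the next widest span, they were Vps37a, Slc38a3 and Rpl7, with differences of 0.0066, 0.0075 and 0.011. Within 0.25 of Ugt2a3 lay 4392 of the 12689 genes, so its pattern was common on these arrays.

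Markers of other cells differed between the arrays. Pancreatic acinar markers (5 of 6 usable) had summed linear levels of 0.210 in APS plus metformin, 6.11 in metformin and 1.41 in aging diabetic, against 31.6 in natural aging. Macrophage markers (6 of 6) stood at 23.1, 33.9 and 28.8, against 40.5, and cholangiocyte markers (5 of 6) at 1.30, 2.66 and 1.89, against 2.70. In metformin against natural aging the macrophage markers went different ways, with a median of -0.03 log2. Marco, Clec4f and Cd5l differed by -1.70, -0.84 and -0.07, and Adgre1, Csf1r and Cd68 by 0.02, 0.02 and 0.12. Of the 6 enterocyte markers, which matter since intestine also makes UGT enzymes, Cdx2, Cdh17 and Sis were not well above background on any array, and Lct was so on the metformin array only. Vil1 was well above background on all 4, with levels of -3.43 in APS plus metformin, -1.45 in metformin and -2.99 in aging diabetic, against -3.83 in natural aging, and was 5.18-fold higher in metformin than in natural aging. In metformin against aging diabetic, 2 of the 3 markers compared were higher, Vil1 and, as a bound, Lct, against 11.9% of all genes. Fabp2, which is also expressed in liver, makes up most of the summed level, which was 10.8 in APS plus metformin and 10.6 in metformin, against 13.3 in natural aging. Of the 6 kidney tubule genes, Umod, Kap and Slc12a1 were not well above background on any array. Lrp2 was well above background on metformin only, Slc34a1 on APS plus metformin and metformin, and Slc5a2 on all 4. Slc5a2 was short of 2-fold throughout. Differences of Lrp2 and Slc34a1 from arrays where they were dim are bounds, so whether these pass 2-fold is not known. The Lrp2 signal was 63.1 in APS plus metformin, 238 in metformin and 70.2 in aging diabetic, against 23.4 in natural aging. The part of acinar, macrophage, cholangiocyte, intestinal or kidney RNA in the UGT differences was not tested.

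**Figure D5:**
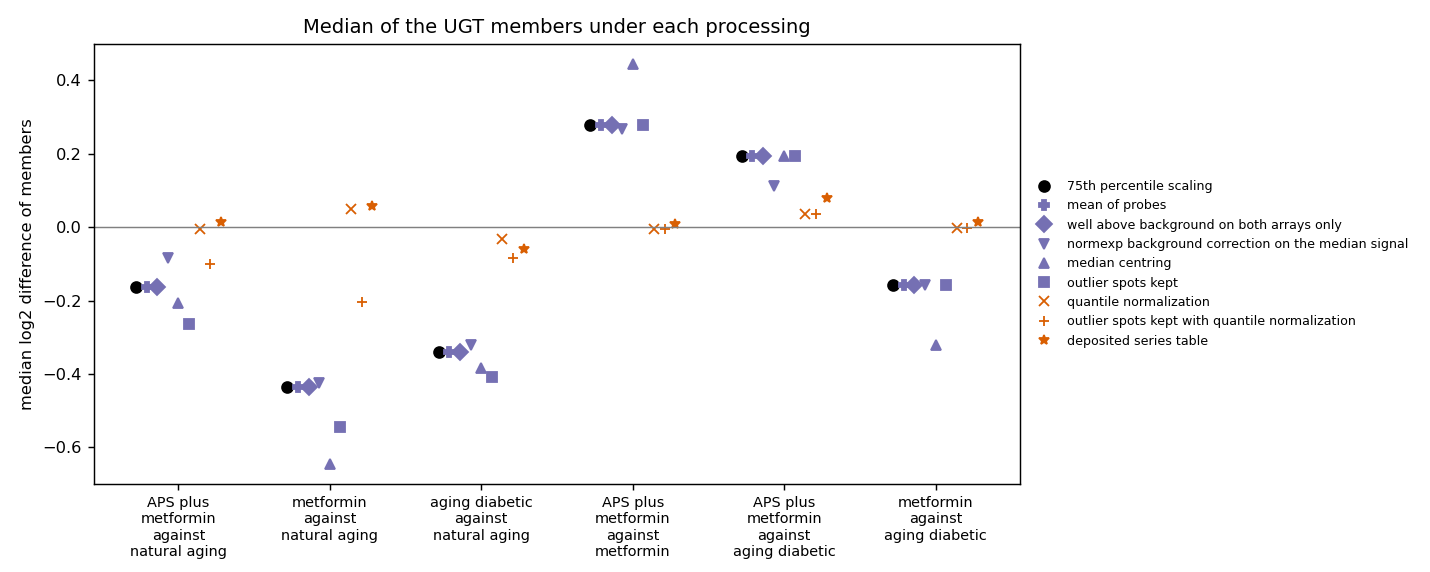
Median log2 difference of the UGT members (vertical axis) in each of 6 comparisons (horizontal axis) under the main scaling (black) and 8 alternatives, with those that give the arrays equal distributions in orange. For metformin against natural aging the black point is at -0.43 and quantile normalization at 0.051; the medians hold 5 members, or 9 with flagged spots kept.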

How the data were processed

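Spot intensity was read from the deposited array files, which per the file headers hold the red channel (Cy5) of 4 arrays on 1 slide in 1 scan. Per the file headers, the authors' Agilent Feature Extraction (version 11.5.1.1, or 10.7 per the submitters' processing notes) gave the processed intensity, background-subtracted and detrended within an array, its error, and flags for background, saturation and outliers. The deposited series table holds log2 values normalized by the authors in GeneSpring per the labels, by a method not given; its columns have equal quartiles. Here, log2 processed signals were scaled to the 75th percentile of each array. Outlier-flagged spots did not enter the main values, which kept 51780 of 56605 probes, and the brightest usable probe stood for a gene. Accessions matched RefSeq for 33767 probes. Where only 1 of 2 arrays was well above background, the dim side was set to at least the array's detection floor, and the difference is a bound. Among other limits, the number of arrays limits the precision. The files hold no mean signal, so normexp (offset 50) used the median signal. Tools were Python 3.11.15, numpy 2.4.6, pandas 2.3.3, scipy 1.17.1 and limma 3.58.1. The counting of 2-fold differences was checked on simulated data. Named genes are all members and other UGT genes, up to 4 genes past 2-fold per pathway list, and 3 genes of like pattern for 2 members; further genes of the lists were named after their values were seen. One listed item is not reported here. Members and lists were chosen with earlier results of these data known. Alternatives were the background correction, the normalization, the series table, outlier spots, the mean of probes, genes detected on both arrays only and a 1.5-fold threshold.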

Additional observations from a re-analysis of the deposited data

How the results depend on the processing

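Ugt1a6a was at least 2-fold higher than natural aging on the 3 diabetic arrays under all alternatives tried, and no called difference of a member changed sign. The median of the members depended on the scaling. In aging diabetic against natural aging it was -0.34, against -0.033 after quantile normalization, -0.085 with flagged spots kept as well and -0.059 in the deposited series table. In metformin against aging diabetic it was -0.16, against -0.32 with median centring and 0.013 in the series table. In APS plus metformin against metformin it was 0.28, against -0.0059 after quantile normalization, with or without flagged spots, 0.44 with median centring and 0.010 in the series table. In metformin against natural aging it was -0.43, against 0.051 after quantile normalization, -0.20 with flagged spots kept as well, -0.64 with median centring and 0.057 in the series table. In APS plus metformin against natural aging it was -0.16, against 0.015 in the series table. Median centring itself shifted the median of all genes by up to 0.18 in size, to -0.18 in metformin against natural aging. With flagged spots kept, 1 member (Ugt2b35) in place of 0 was at least 2-fold higher in APS plus metformin against aging diabetic, also after quantile normalization, and 1 in place of 0 against metformin. Over all genes with flagged spots kept, 717 of 16269 and 413 of 17135 were higher in these 2 comparisons. At a 1.5-fold threshold, 1 member (Ugt2a3) in place of 0 was lower in metformin against natural aging. The share of all genes at that threshold was not counted, so this member cannot be set against it. The cause of these shifts was not tested. Of 240 single-member values under alternatives, 172 moved by less than their measurement error and 68 by more. The 172 include values that could not move, as each member counted had 1 unflagged probe, well above background on all arrays. Keeping flagged spots, the mean of probes and genes detected on both arrays only thus left the main values unchanged. Keeping flagged spots with quantile normalization likewise repeated the quantile values. The alternative that used a mean spot signal was not run. Keeping flagged spots with quantile normalization and normexp on the median signal were chosen after seeing the data. No paired analysis was possible because each group has 1 array.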
